A study of Mus musculus with 3 samples.

Results

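The 10 genes described here are the receptors of the Notch pathway (Notch1, Notch2, Notch3 and Notch4), its canonical ligands (Dll1, Dll3, Dll4, Jag1 and Jag2) and Rbpj, the DNA-binding protein through which the receptors act. They were taken by name, and each gene was represented by the probe set that names that gene alone in the platform annotation, with the highest mean where there were several. All 10 were measured, of 19938 genes in all. RNA came from bone marrow-derived dendritic cells (BMDC) of C57BL/6J mice, an inbred strain. Marrow cells, plated at 2000000 per well, were kept for 9 days with GM-CSF and IL-4 (20 ng/ml of each), and 150 ng of RNA per sample was amplified and labelled for 3 Affymetrix whole-transcript arrays. The 3 samples form 1 group with no other treatment and no genotype, time or control contrast. Whether they came from separate mice or cultures is not given in the labels, so each SD describes how far these samples differed, which may be technical variation.

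Notch receptors are single-pass membrane proteins that bind Delta-like and Jagged ligands on a neighbouring cell. Ligand binding exposes the receptor to an ADAM protease and then to gamma-secretase, which frees the intracellular domain. This domain enters the nucleus, binds Rbpj together with Mastermind coactivators and turns a repressed gene on. In mice, Notch2 signalling through Rbpj is needed for subsets of conventional dendritic cells in the spleen and the gut, and ligands of the Delta-like family on stromal or endothelial cells are a usual source of the signal. Dendritic cells themselves can carry ligands that act on T cells.

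Values are log2 expression made by the authors with RMA, and the number of arrays limits their precision. To be called above background, a gene had to lie, in every array, over the 95th percentile of the 1194 probe sets on it for olfactory and vomeronasal receptors, which are sensory genes. The limits were 5.54, 5.54 and 5.56 in replicates 1, 2 and 3, and a stricter limit at the 99th percentile lay at 6.28, 6.24 and 6.33. Probe sets bind with different strength, so a call is only a rough guide to detection, and no gene's level was set against another gene's. Of all genes, 60.3% were above the 95th percentile limit and 46.2% above the 99th. Of the 46 measured genes of other tissues (silent tissue genes), 11 were above the first limit (23.9%) and 1 above the second. The arrays correlated at Pearson's r between 0.994 and 0.996 across probe sets, which are not independent replicates. In 57.1% of all genes the 3 deposited values were identical, so a small SD here cannot be read as high precision.

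Of the dendritic cell markers, 6 of 8 were above the 95th percentile limit. Itgax (CD11c) had 11.91, 11.92 and 11.91 and the class II gene H2-Ab1 had 12.31, 12.36 and 12.42 in replicates 1, 2 and 3. Zbtb46, a transcription factor of conventional dendritic cells, had 6.36 in each array, and the receptor gene Flt3 (5.47, 5.47 and 5.24) lay below the limit. All 7 macrophage markers were above it, Adgre1 (F4/80) at 10.25, 10.18 and 10.04 among them. The class II and CD11c genes of the labelled cell type were thus present, beside macrophage markers and without Flt3 or Dpp4 above the limit.

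Among the 10 genes, Notch1, Notch2 and Rbpj stood well above background, and no canonical ligand did. All 4 receptors and Rbpj, but 2 of 5 ligands, were above the 95th percentile limit, which makes 7 of 10 against 60.3% of all genes. Above the 99th percentile limit 3 of 10 remained, which were Notch1, Notch2 and Rbpj, against 46.2% of all genes. With the 95th percentile of the silent tissue genes as the limit 4 remained, Notch3 added, against 47.7%, and at the 90th percentile there were 9, all but Dll3, against 68.2%. A count this near the share of all genes is no result about the family as a whole, and the values of its members are given.

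**Figure D1:**
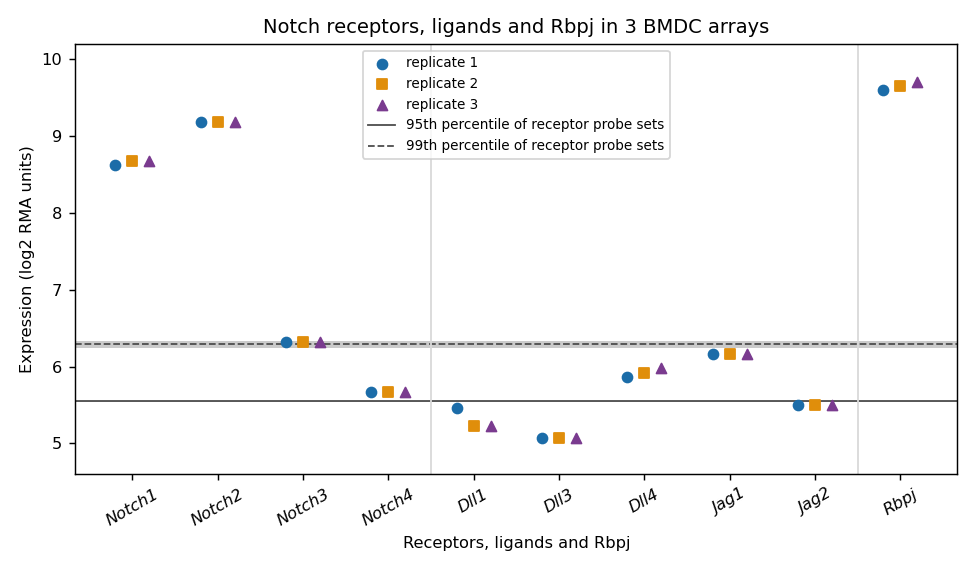
Log2 expression (vertical axis, RMA units) of each gene (horizontal axis) in replicates 1, 2 and 3, shown as circles, squares and triangles. The solid and dashed lines are the 95th and 99th percentiles of the olfactory and vomeronasal receptor probe sets, averaged over the arrays, with grey bands from the lowest to the highest array. Notch1, Notch2 and Rbpj lie over 2 log2 units above the dashed line, and the other genes lie between 5.07 and 6.32.

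Notch1, the receptor best known for committing lymphoid progenitors to the T cell lineage, had 8.63, 8.67 and 8.67 in replicates 1, 2 and 3 (8.66 ± 0.02, SD, n = 3; probe set 10481056). Its value exceeded the 95th percentile limit by at least 3.09 log2 units. Notch2, the receptor required for subsets of conventional dendritic cells and for marginal zone B cells, had 9.18 in each array (probe set 10494595), at least 3.62 above the limit. For each of these receptors 1 of the 1194 sensory receptor probe sets (0.0838%) reached the same mean. Both were thus detected in every array, by a margin far larger than any difference between arrays.

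Notch3, best known from vascular smooth muscle and pericytes, had 6.32 in each array (probe set 10449775), with 11 sensory receptor probe sets (0.921%) at or above it. It was above the 99th percentile limit in 2 arrays and missed it in replicate 3 by a margin of -0.01. The call therefore turned on the limit, since its own value was identical in the arrays. Notch4, a receptor of endothelial cells, had 5.67 in each array (probe set 10444352), 0.12 above the highest of the 95th percentile limits. For Notch4, 44 sensory receptor probe sets (3.69%) lay at or above that value, so it cannot be told from the upper tail of silent genes.

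The ligands lay around the limit. Jag1, a Jagged ligand expressed by many epithelial, vascular and stromal cells, had 6.16 in each array (probe set 10488060). Dll4, the ligand that drives T cell commitment in the thymus and vessel patterning in endothelium, had 5.87, 5.91 and 5.98 in replicates 1, 2 and 3 (5.92 ± 0.06, SD, n = 3; probe set 10474958). Both were above the 95th percentile limit in every array and below the 99th in every array. Of the sensory receptor probe sets, 17 (1.42%) reached the level of Jag1 and 29 (2.43%) that of Dll4.

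The remaining ligands were below background in every array. Jag2, the second Jagged ligand, had 5.50 in each array (probe set 10402808), a margin of -0.06 to the highest limit. Dll1, the Delta-like ligand needed for marginal zone B cells, had 5.46, 5.23 and 5.23 (5.31 ± 0.13, SD, n = 3; probe set 10448034). Its replicate 1 value lay apart from replicates 2 and 3, yet none passed the limit. Dll3, a Delta-like protein that in mice acts inside the cell as an inhibitor and does not activate receptors on neighbouring cells, had 5.07 in each array (probe set 10561376), and 13.8% of the sensory receptor probe sets lay at or above it.

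**Figure D2:**
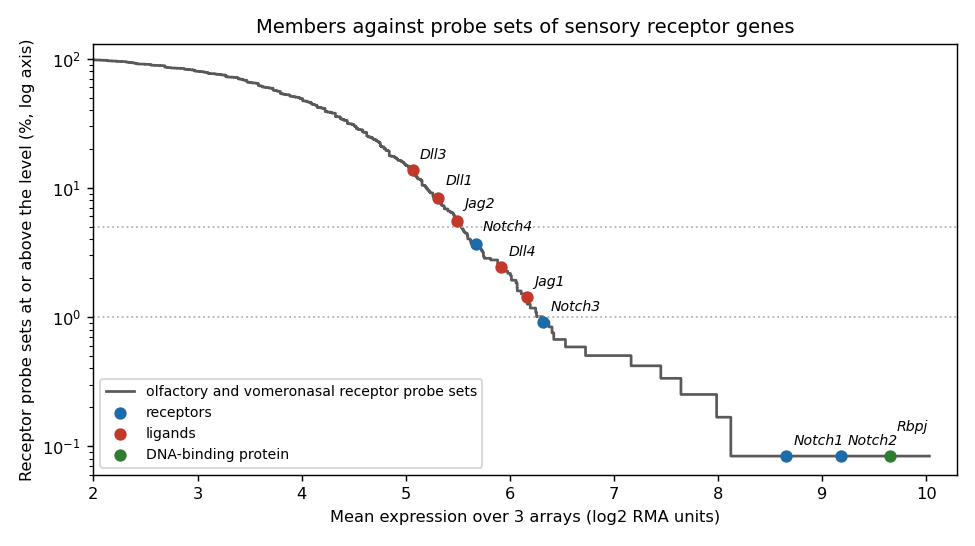
Percent of the 1194 olfactory and vomeronasal receptor probe sets at or above a given level (vertical axis, log scale) against mean expression over 3 arrays (horizontal axis, log2 RMA units). The grey line is the sensory receptor probe sets, and blue, red and green points are the Notch receptors, the ligands and Rbpj. Dotted lines mark 5% and 1%. The ligands lie on the falling part of the line, between 13.8% and 1.42%, and Notch1, Notch2 and Rbpj lie past its bulk at 0.0838%.

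Rbpj, which represses its targets until a Notch intracellular domain binds it, had 9.60, 9.65 and 9.70 in replicates 1, 2 and 3 (9.65 ± 0.05, SD, n = 3; probe set 10521913). It lay at least 4.06 above the 95th percentile limit and 3.32 above the 99th. It is the only gene of the 10 with a second probe set that names it alone, which had 5.21 in each array (probe set 10521911), below background. These probe sets disagreed on the call. The annotation ties the higher one to several RefSeq transcripts of Rbpj and the lower one to a single clone record. With the mean of both probe sets Rbpj stood at 7.43, still above background in each array.

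The spread between arrays was small, as it was for most genes. All genes above background had a median range of 0.01 log2 units and a 90th percentile of 0.23. Rbpj (0.10), Dll4 and Notch1 (0.04) lay over that median. Of the 10 genes, 6 had identical values in the 3 arrays, against 57.1% of all genes. None of the 7 above background spanned more than 0.5 log2 units, against 2.62% of all genes above background, which is no result about the family. Their widest range was 0.11, in Dll4, and the widest over all 10 genes was 0.23, in Dll1. Dll4 and Rbpj were each highest in replicate 3, as were 36.2% of the genes above background whose values differed. A rule that would have named genes with a like pattern over the arrays asked for 3 different values and a range over 0.3, and no gene of the family met it.

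Most promoters of the family had more G and C than the median promoter. In the 250 bases before the annotated start (RefSeq, build GRCm38.p6), the 12 windows of the 10 genes held 52.0% to 87.2% G and C, and 11 of the 12 exceeded the median of 52.4% over 32851 promoter windows, as did 67 of the 93 windows of the other pathway genes. Over the 90th percentile of all windows, 69.2%, lay only Notch2 (72.0%) and Jag2, and Dll3 lay under the median. Jag2 had the highest share, with 54 CG pairs, against a median of 6 over all windows, and Notch4 the fewest pairs, with 4. Rbpj is known to bind the core letters TGGGAA, most often as GTGGGAA, which contains the core. Both strands were searched for TGGGAA, which reads TTCCCA on the other strand, and 21.6% of all windows held it. Of the 10 genes only Rbpj had it, in both of its overlapping windows. The longer GTGGGAA occurred in none of the 12 windows and in 5.42% of all windows.

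The promoters of the family genes above the 99th percentile limit are shown 5′ to 3′ on the strand of the gene. That of Hes5, a classic target of Notch signalling, is added as an example with the letters, chosen after its matches were seen. Capitals mark TGGGAA or TTCCCA. The windows are chr2:26503823-26504072 (minus strand) for Notch1, chr3:98013288-98013537 (plus strand) for Notch2, chr5:53590096-53590345 (plus strand) for Rbpj and chr4:154960673-154960922 (plus strand) for Hes5.
Notch1: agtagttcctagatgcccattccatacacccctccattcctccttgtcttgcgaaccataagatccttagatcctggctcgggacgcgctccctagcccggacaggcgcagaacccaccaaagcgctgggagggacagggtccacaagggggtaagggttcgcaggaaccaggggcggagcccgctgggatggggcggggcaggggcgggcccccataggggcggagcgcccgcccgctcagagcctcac
Notch2: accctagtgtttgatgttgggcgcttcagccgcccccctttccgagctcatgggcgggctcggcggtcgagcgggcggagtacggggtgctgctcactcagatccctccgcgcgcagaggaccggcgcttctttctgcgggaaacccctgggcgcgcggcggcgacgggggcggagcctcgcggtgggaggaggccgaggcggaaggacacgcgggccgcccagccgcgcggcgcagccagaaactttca
Rbpj: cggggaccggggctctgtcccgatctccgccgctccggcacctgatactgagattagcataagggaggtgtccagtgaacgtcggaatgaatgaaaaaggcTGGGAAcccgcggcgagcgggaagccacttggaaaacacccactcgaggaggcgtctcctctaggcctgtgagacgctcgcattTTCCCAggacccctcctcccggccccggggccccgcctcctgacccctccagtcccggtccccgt
Hes5: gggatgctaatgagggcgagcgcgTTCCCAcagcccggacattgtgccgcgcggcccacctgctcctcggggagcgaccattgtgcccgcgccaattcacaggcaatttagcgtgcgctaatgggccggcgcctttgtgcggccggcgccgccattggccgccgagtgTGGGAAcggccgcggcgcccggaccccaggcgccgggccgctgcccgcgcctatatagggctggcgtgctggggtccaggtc
In Rbpj the core began 149 bases before the start on the gene's strand and 65 bases before it on the other strand. In Hes5 it began at 226 and 82 bases before the start, and both matches were GTGGGAA. The 68 other pathway genes with a promoter window had 93 windows. Of these windows, 21 held TGGGAA and 6 held GTGGGAA, against 21.6% and 5.42% of all windows. Counted by gene, 20 and 6 of the 68 held them, which is not comparable with a share of windows. Hes6, also above the stricter limit, held neither. A match of letters is no evidence of binding, and no match says only that these letters are absent from the window.

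The rest of the pathway was described through 11 lists with 96 genes, of which 91 were analysed here. Of these, 77 (84.6%) were above the 95th percentile limit, against 60.3% of all genes, and 60 (65.9%) above the 99th, against 46.2%. The lists were written with earlier results of these data known, so these shares are a description and no test of the pathway.

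The enzymes that prepare the receptor were detected nearly completely. Of 9 glycosyltransferases that build sugars on the Notch ectodomain, 8 were above both limits. Pofut1, which adds the fucose that receptor function needs, had 7.15 in each array, and Poglut1, which adds glucose, had 7.95, 7.97 and 7.95. Lfng, a Fringe enzyme that extends the fucose and favours Delta-like over Jagged ligands, had 8.14, 8.14 and 7.71 in replicates 1, 2 and 3. Replicate 3 was thus 0.43 below the others. Gxylt2, a xylosyltransferase, was the exception at 5.13 in each array.

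All 3 proteases that cut the receptor outside the membrane were above both limits. Furin, which cuts it on the way to the surface, had 9.36 in each array. Adam10, the protease of ligand-driven cleavage, had 10.11 in each array, and Adam17 had 9.55, 9.51 and 9.51. So were all 6 measured genes of gamma-secretase, the complex that frees the intracellular domain. Its catalytic subunit gene Psen2 had 9.00, 9.06 and 9.19, Ncstn (nicastrin) had 9.41, 9.41 and 9.36, and Aph1a had 9.62 in each array.

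Genes of the ubiquitin ligases and epsins that act on ligands were above the 95th percentile limit in 6 of 6 cases and above the 99th in 3. Mib1, the ubiquitin ligase that makes ligands active by driving their endocytosis, had 8.23, 8.31 and 8.40 in replicates 1, 2 and 3. Mib2 had 6.83, 6.83 and 6.85, and Neurl1a, a ligase of the Neuralized family, had 5.98 in each array. Mib1 was thus above the 99th percentile limit in arrays where no canonical ligand was.

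The nuclear partners of Rbpj were mostly detected, coactivators and corepressors alike. All 8 coactivator genes were above the 95th percentile limit and 7 above the 99th, with Maml1 (Mastermind-like) at 7.12 in each array, Maml2 at 8.84, 8.87 and 8.88 and Maml3 at 5.91 in each. Of 15 corepressor genes 13 were above the first limit and 11 above the second. Spen, a scaffold that joins Rbpj to repressor complexes, had 8.11 in each array, and the histone deacetylase genes Hdac1 and Hdac2 had 8.82, 8.82 and 8.81 and 8.14 in each. Below the limit in at least 1 array were Tle1 (5.56, 5.47 and 5.47), a Groucho corepressor, and Fhl1 (5.26 in each), of which a splice form binds Rbpj.

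Regulators of the receptor inside the cell were above the limit in 12 of 13 cases. Numb, an adaptor that sends the receptor to degradation, had 8.42, 8.61 and 8.66 in replicates 1, 2 and 3, its relative Numbl had 7.12 in each array, and the ubiquitin ligase gene Itch had 10.03 in each. Nedd4, another ubiquitin ligase, had 7.83, 7.68 and 7.17, with replicate 3 lowest by 0.66 from the highest. The exception was Nrarp at 4.97 in each array, an ankyrin repeat protein that feeds back on the Notch complex and is itself one of its direct targets.

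Most Hes and Hey genes lay between the limits or below both. Some of the 9 Hes and Hey genes encode repressors that Notch signalling commonly turns on, but not all, Hes6 for one, are usual targets. Of the 9 genes, 7 (77.8%) were above the 95th percentile limit and 2 above the 99th. Hes1 had 5.60 in each array, 0.04 above the highest 95th percentile limit, and Hes2 had 5.74 in each. Below the limit were Hes3 (5.46 in each) and Hey2 (4.15 in each). The genes above the stricter limit were Hes5, at 6.73 in each array, and Hes6, at 6.72, 6.72 and 6.66, both named after their values were seen. All but Hes6 had identical values in the 3 arrays.

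Of 8 measured genes that Notch regulates in lymphoid or dividing cells, 7 were above the limit. Nrarp was not, Dtx1, a Deltex ubiquitin ligase induced in T cells, had 6.37 in each array, and Myc, a growth regulator, had 9.32, 9.34 and 8.95 in replicates 1, 2 and 3. Il2ra, the alpha chain of the IL-2 receptor, had 7.57, 7.46 and 7.05, and Gata3, a factor of T cells and mast cells, had 6.82, 6.92 and 6.39. Both were lowest in replicate 3, by more than 0.5 log2 units from the highest array.

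**Figure D3:**
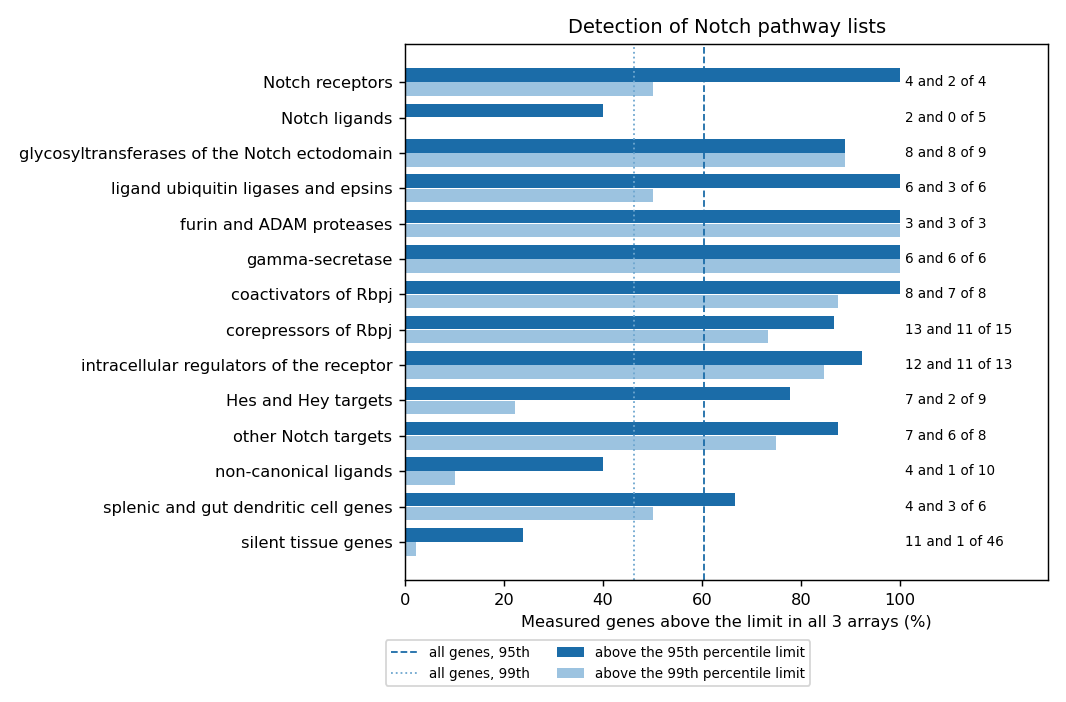
Percent of the measured genes of each list (horizontal axis) above the 95th (dark bars) and the 99th percentile limit (light bars) in all 3 arrays, with the counts at the right. The dashed and dotted lines mark all genes, at 60.3% and 46.2%. The Notch ligands (2 and 0 of 5), the Hes and Hey genes, labelled as targets (2 of 9 at the stricter limit), and the non-canonical ligands (4 and 1 of 10) have the shortest light bars of the Notch lists.

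Non-canonical ligands, which bind Notch receptors without the full ligand structure, were above the limit in 4 of 10 cases and above the 99th percentile in 1. Dlk1 and Dlk2, which can dampen Notch signalling, had 6.25 and 6.04 in each array, and Mfap2, a microfibril protein, had 6.39 in each. Dner (5.10 in each), a neuronal ligand, lay below. A further list held 6 genes linked to dendritic cells of the mouse spleen and gut, of which not all mark cells that need Notch2. Of these, 4 (66.7%) were above the limit, against 60.3% of all genes. Esam, an adhesion molecule of Notch2-dependent splenic cells and of endothelium, had 5.59, 5.66 and 5.87 in replicates 1, 2 and 3. Its smallest margin over the 95th percentile limit was 0.05, and it was below the 99th in every array. With 3.52% of the sensory receptor probe sets at or above its mean, Esam cannot be told from the upper tail of silent genes. Clec4a4 (4.52 in each), of the same splenic cells, and Itgae (5.12, 5.12 and 5.09), an integrin gene of gut dendritic cells, lay below the 95th percentile limit. Cd4, which splenic dendritic cells share with helper T cells, had 6.62, 6.38 and 6.57.

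By the median range of a list, T cell (0.80), NK cell (0.43), mast cell (0.83) and neutrophil markers (0.59) varied more between arrays than the family (0.0). So did cell cycle genes (0.75) and, by less, macrophage (0.21), B cell (0.18), stromal (0.17) and dendritic cell markers (0.09) and housekeeping genes (0.02). Endothelial (0.0) and stem and progenitor markers (0.0) did not. The median of the family is 0.0 because 6 of its 10 genes had identical values, as had 57.1% of all genes. In bulk RNA, fewer cells of a type and less RNA per cell cannot be told apart. All 7 measured T cell markers were above the limit and all 7 were lowest in replicate 3, Cd3e at 9.09, 8.79 and 8.15 among them, with a mean level over the list of 7.46, 7.24 and 6.82 in replicates 1, 2 and 3. All 9 cell cycle genes were lowest there too, with mean deviations from the gene's own mean of 0.38, 0.10 and -0.48 log2 units. So were 6 of 8 mast cell and basophil markers (mean levels of 6.30, 6.38 and 5.45, 4 of 8 above the limit), with Cpa3 at 7.38, 7.54 and 5.38. NK cell markers (5 of 8 above the limit) had mean levels of 7.18, 7.02 and 6.60, and all 5 whose values differed were lowest in replicate 3, Il2rb at 9.81, 9.47 and 8.42 among them. The other NK cell markers, Ncr1 (4.23), Klrd1 (4.89) and Klre1 (3.39), lay below the limit with identical values in the arrays. Neutrophil markers (3 of 8 above the limit) had mean levels of 6.67, 6.50 and 5.71, and 6 of the 7 whose values differed were lowest there, Lcn2 at 7.98, 6.69 and 5.12 among them. Of the B cell markers 2 of 5 were above the limit, of the stem and progenitor markers 2 of 6, and of the housekeeping genes all 8. Of the genes above background whose values differed, 37.9% were lowest in replicate 3 alone.

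Beside these markers, Lfng, Nedd4, Myc, Il2ra and Gata3 were lowest in the same array, and they were the only 5 of the 91 pathway genes that were above background and spanned more than 0.3 log2 units. The part of T cells, NK cells, dividing cells, mast cells or neutrophils in these values was not tested. Notch1, also a T cell gene, differed by 0.04 over the arrays. The T cell markers differed by 0.05 (Cd247) to 1.21 (Cd3g), with Cd5 at 0.10, Zap70 at 0.29 and Cd3e at 0.94. The part of T cells in the Notch1 value was not tested.

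Endothelial and stromal cells are usual carriers of the ligands. Of 8 endothelial markers 3 were above the 95th percentile limit and 0 above the 99th, with mean levels of 5.13, 5.13 and 5.11. Cdh5 (5.91, 5.91 and 5.86), Tie1 (6.00, 6.00 and 5.86) and Cldn5 (5.74 in each) were above the first limit, whereas Kdr (5.16), Tek (4.50) and Emcn (3.89) lay below it with identical values in the arrays. Of 9 stromal markers 4 were above the first limit and 2 above the second, the collagen genes Col1a1 (6.94, 6.69 and 6.76) and Col1a2 (6.53, 6.36 and 6.36), and the list was highest in replicate 1, with mean levels of 6.12, 5.47 and 5.54. Dcn had 8.12, 5.36 and 5.41 and Sparc 7.64, 5.34 and 5.78, while Lum (3.47, 3.43 and 3.47) and Cxcl12 (5.02, 4.99 and 4.99) were below the limit. Dll1 was highest in the same array, below background, and the part of stromal cells in it was not tested. Jag1 had the same value in all 3 arrays.

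**Figure D4:**
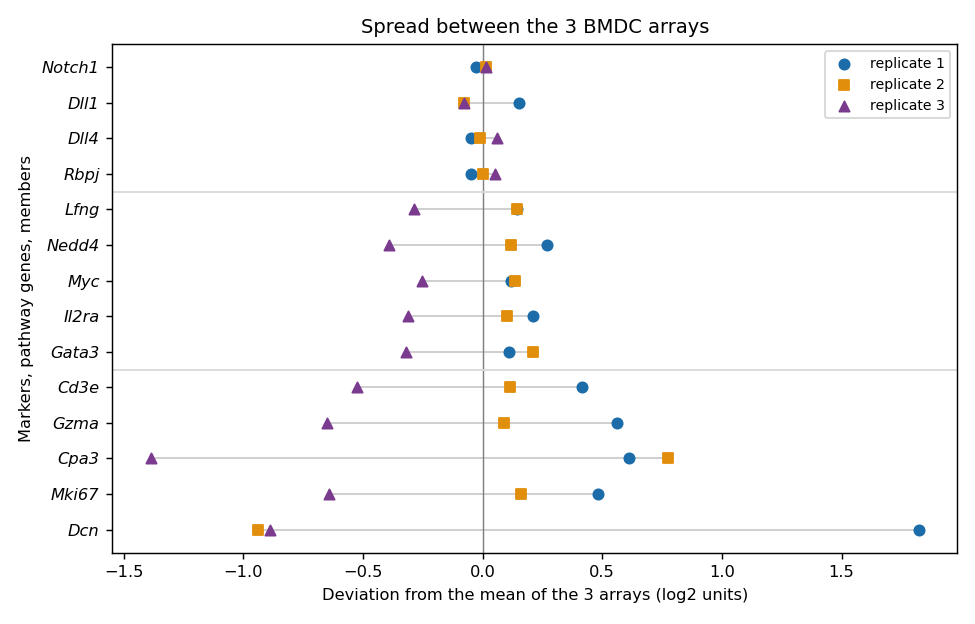
Deviation of each array from the mean of the 3 arrays (horizontal axis, log2 units) for the 4 Notch family genes whose values differed (top), the 5 pathway genes above background with a range over 0.3 (middle) and 5 markers of T cells (Cd3e), NK cells (Gzma), mast cells (Cpa3), dividing cells (Mki67) and stroma (Dcn) (bottom). Circles, squares and triangles are replicates 1, 2 and 3. The family genes span at most 0.23, the pathway genes and Cd3e, Gzma, Cpa3 and Mki67 are lowest in replicate 3, and Dcn is highest in replicate 1.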

How the data were processed

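Total RNA of 3 BMDC samples was measured on 1 array each. Per the submitters' processing notes, the authors used RMA, and the deposited values are log2 expression. Version and software are not given in the sources used here. As a method, RMA corrects background, quantile normalizes and summarizes probes by median polish. The array medians were 5.91, 5.91 and 5.91, so scale and normalization were judged from the values, which were not centred.

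Of 35556 probe sets, 21789 name 1 gene in the platform annotation, which is several years old, 1621 name several and were not used for any gene, and 12146 are not listed. Entrez identifiers of 21698 were matched to RefSeq, which changed 0 symbols. With 1 group there was no test: levels, calls above background in all 3 arrays, and ranges between arrays were described with Python 3.11.15 and pandas 2.3.3, and calls and ranges were checked on simulated data. Vomeronasal and olfactory pseudogenes named as such were left out of the 1194 probe sets behind the limits. The members and lists were chosen with earlier results of these data known.

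The genes named are the 10 members, the first 3 measured genes of each pathway list, pathway genes above background with a range over 0.5, up to 3 genes per list whose call went against most of the list, and few markers per cell type. Alternatives covered the limit, the call, the probe set, the range, the scaling and leaving out each array.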

Additional observations from a re-analysis of the deposited data

How the results depend on the processing

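The count of members above background depended on the limit. It was 7 of 10 as reported, 3 with the 99th percentile limit and 4 with a limit at the 95th percentile of the silent tissue genes (6.23 in each array), which kept Notch3 and dropped Notch4, Dll4 and Jag1. At that limit 47.7% of all genes were above. With the 90th percentile it was 9, and Dll3 alone lay below (68.2% of all genes). Calling on the mean, averaging a gene's probe sets and leaving out each array (7 to 7) gave 7. Of 91 pathway genes, 60 to 80 were above background under these alternatives. No member above background spanned over 0.5 log2 units, and with limits of 0.3 and 1, housekeeping centring (which moved the median of all genes by at most 0.006), averaged probe sets or each array left out (0 to 0) the count stayed 0. Of 80 member levels under alternatives, 70 kept level and call, 7 lost the call, 2 gained it and 1, Rbpj with averaged probe sets, moved to 7.43. No paired analysis was possible because there is 1 group. Values near background have the least signal to separate them from unspecific binding.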

Other observations

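The platform also holds 6 probe sets that name Notch4 together with Sympk, a gene of messenger RNA processing, and were not used for either gene. Their values were identical in the 3 arrays and lay between 4.09 and 4.69, so 0 of 6 were above background, whereas the probe set of Notch4 alone had 5.67 in each array. Rbpjl, a relative of Rbpj best known from the pancreas, had 6.27 in each array, above the 95th percentile limit of the sensory receptor probe sets in every array and above the 99th in replicate 2 only.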
